A study of Mus musculus with 18 samples.

Results

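The livers of mice given the higher of 2 oral doses of monocrotaline, 330 mg/kg, were set against those of saline-treated controls across all genes that the arrays measured. Monocrotaline (MCT) is a pyrrolizidine alkaloid of Crotalaria plants. The comparison used the 3 mRNA arrays labelled MCT 330 and the 3 labelled control, 6 of the 18 arrays of the series, and every probe on them that is not a control spot. All mice were C57BL/6 males aged 6 weeks that were fasted for 12 h, dosed once by gavage and killed 48 h later. Each group held 8 mice, and the sample titles give each array a mouse of its own. The 3 arrays of the 270 mg/kg dose (MCT 270), from mice handled alike, entered the same model to estimate the spread between samples.

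Hepatocytes, above all those around the central vein, turn monocrotaline into a reactive pyrrole by cytochrome P450 oxidation. The pyrrole binds glutathione, protein and DNA, and crosslinks DNA. The sinusoidal endothelial cells that line the capillaries of the liver are known to be injured along with these hepatocytes, so that sinusoids clot, bleed and become blocked.

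The labelled replicates were not all separate measurements. The MCT 330 arrays differed from each other by 0.711 to 0.984 times what repeated spots of a probe differed by on one array, and control replicates 2 and 3 by 0.626 times. Control replicate 1 differed from the other control arrays by 3.66 and 3.73 times that noise, and arrays of different groups by 3.92 to 12.4 times. In every group replicate 3 lay at the same array position of its slide as replicate 2, and the deviations of 2236 repeated spots were correlated between these arrays at 0.736 to 0.923, against 0.308 to 0.546 between replicate 1 and either of them. Arrays that differed by no more than spot noise over all probes were averaged. MCT 330 replicate 1 met this limit narrowly (0.957 and 0.984) and lay at another array position than replicates 2 and 3. Its dim probes differed from theirs by 1.14 and 1.16 times spot noise, and its spot deviations were correlated with theirs at 0.312 and 0.308. Whether it came from another mouse was not tested. After averaging 5 samples remained, 2 for each of control and MCT 270 and 1 for MCT 330. Every p-value below therefore assumes that the single MCT 330 sample varied like the samples of the other groups, and nothing measured the spread between MCT 330 mice. MCT 330 arrays were scanned apart from the other groups' arrays, so scan and dose cannot be told apart. From 63.95% to 80.93% of the spots on an array were well above background, and no spot was saturated.

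Signals are given as log2 relative to the 75th percentile of their own array, so that 0 is that percentile. Differences are MCT 330 minus control in log2 units with the standard error of the model, and p-values are limma's, adjusted by the Benjamini-Hochberg method over all genes, with 0.05 as the threshold. Of 24808 genes tested, 8271 (33.3%) passed, 2358 of them higher (9.5%) and 5913 lower (23.8%) at MCT 330. 1793 of the higher and 4824 of the lower genes differed by at least 2-fold, and 201 and 156 by at least 8-fold. In 8266 of the 8271 genes all MCT 330 arrays lay outside the range of the control arrays. The share over all genes tested is not given here. With 1 MCT 330 sample against 2 control samples, such separation adds little to the call itself. Agreement among the MCT 330 arrays, here and below, is not counted as agreement between mice. The leading genes measured in both groups were chosen with that separation as a condition, so it is no support for them. A gene entered the test if it was bright throughout any 1 group. List counts below thus include genes that could enter only through the group where they were high. With so many genes past the threshold, the count of any gene group below is to be read against 9.5% higher and 23.8% lower.

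The balance between higher and lower genes depended on the scaling. The median difference of all genes was -0.25, which places the middle of the distribution below 0. After quantile normalization 3103 genes were higher and 4289 lower, after normexp background correction 3715 and 3917, and after scaling to the array median 4111 and 3385. The median of all genes was -0.049, -0.026 and 0.13 under these settings. A small difference in a list's median is thus within what scaling can move. Without MCT 270 replicate 1, which leaves 1 residual degree of freedom among samples, 4900 genes passed. Where leaving out 1 array or another scaling moved a count below by over 1.5 times and by at least 2 genes, the moved count stands in parentheses. Without the filter on dim probes 3751 genes passed, 951 higher and 2800 lower, which moved a count in 50 of 69 lists, none of them upward. Of the genes said below to have risen or fallen, 28 did not pass then, with adjusted p from 0.0502 to 0.0953: Abcb11, Anxa2, Areg, Bik, Cat, Cdkn1a, Col1a2, Col4a1, Cryaa, Cxcl13, Edn1, Elovl3, Fga, G6pc, Gstm3, Hamp2, Hbb-bs, Hnf4a, Lgr5, Mcm6, Ndufv3, Saa1, Sdhb, Sqle, Timp1, Utp15, Vmn1r214 and Wnt9b.

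**Figure D1:**
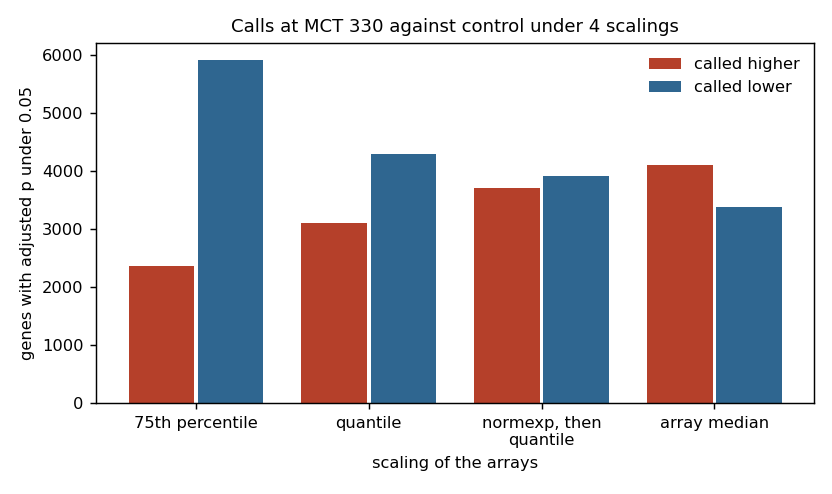
Number of genes (vertical axis) called higher and lower at MCT 330 against control under 4 ways of scaling the arrays (horizontal axis). Lower genes outnumbered higher ones by 5913 to 2358 with the 75th percentile, and higher genes outnumbered lower ones after scaling to the array median (4111 to 3385).

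Immediate early genes, which encode transcription factors and feedback regulators that cells switch on within minutes of growth factors, damage or stress, were among the strongest rises. Of 61 tested, 33 (54.1%) rose and 5 (1 without MCT 270 replicate 1, 1 scaled to the array median, 2 with quantile normalization, 3 with normexp) fell, with a median of 1.20. Sprr1a, a cornified envelope protein that injured epithelia and neurons make, belongs to the list of keratins and epithelial injury genes and is given here for its size: it measured -1.54, -1.58 and -1.65 in the controls and 4.95, 4.79 and 4.85 at MCT 330. The MCT 330 arrays were all high and the groups did not overlap, which was a condition for naming Sprr1a. The rise was 6.44 ± 0.22, or 86.8-fold. Atf3, a stress-induced bZIP factor, measured -4.04, -3.40 and -3.36 in the controls and 2.36, 2.34 and 2.31 at MCT 330, a rise of 6.04 ± 0.40 (adjusted p = 0.00904). Fos, the partner of Jun in the AP-1 factor, measured -3.02, -2.83 and -2.80 in the controls and 1.75, 1.75 and 1.76 at MCT 330, a rise of 4.67 ± 0.21. Jun itself rose by 4.30 ± 0.35 and Ccn1, a matrix protein of the same early wave, by 4.59 ± 0.30. In all of these genes the control arrays sat low, and the MCT 330 arrays, counted as 1 sample, shared 1 high level. Control replicate 1 lay below the other controls in Atf3 and Jun. At MCT 270 these 5 genes lay at 0.12, 0.62, -0.23, -0.11 and 0.19 relative to control.

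The promoters of Sprr1a, Fos and Atf3 hold letters of motifs that factors of the immediate early list are known to bind, which is why their 150 bases before the start are shown. They are from RefSeq on build GRCm38.p6, written 5′ to 3′ on the gene's strand, at chr3:92485882-92486031 (minus strand) for Sprr1a, chr12:85473740-85473889 (plus strand) for Fos and chr1:191183334-191183483 (minus strand) for Atf3. Capitals mark the AP-1 letters TGANTCA in Sprr1a and the core TGACGT of the cyclic AMP response element, or its other strand ACGTCA, in Fos and Atf3.
Sprr1a: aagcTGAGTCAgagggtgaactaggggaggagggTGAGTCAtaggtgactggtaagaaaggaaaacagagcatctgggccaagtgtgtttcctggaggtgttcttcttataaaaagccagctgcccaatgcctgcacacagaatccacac
Fos: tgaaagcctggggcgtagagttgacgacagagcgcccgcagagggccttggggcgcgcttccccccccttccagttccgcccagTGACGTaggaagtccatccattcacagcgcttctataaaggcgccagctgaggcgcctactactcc
Atf3: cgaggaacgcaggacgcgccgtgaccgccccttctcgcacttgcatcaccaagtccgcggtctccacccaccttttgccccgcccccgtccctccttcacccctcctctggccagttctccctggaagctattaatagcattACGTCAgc

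Sprr1a holds TGAGTCA with its first base 146 and again 116 bases before the start. Searched on both strands over promoter windows of 1 length, TGANTCA was found in 7.93% of all promoters, and TGACGT in 7.64%. TGANTCA was in 7.39% of the promoters of higher and 7.56% of those of lower genes, against 6.33% of those of all genes tested, and TGACGT in 11.3% and 6.28%, against 9.9%. Of the 126 genes with a promoter entry that rose at least 8-fold, 12.7% held TGANTCA and 11.1% TGACGT. A match is a description of the letters and not of binding.

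**Figure D2:**
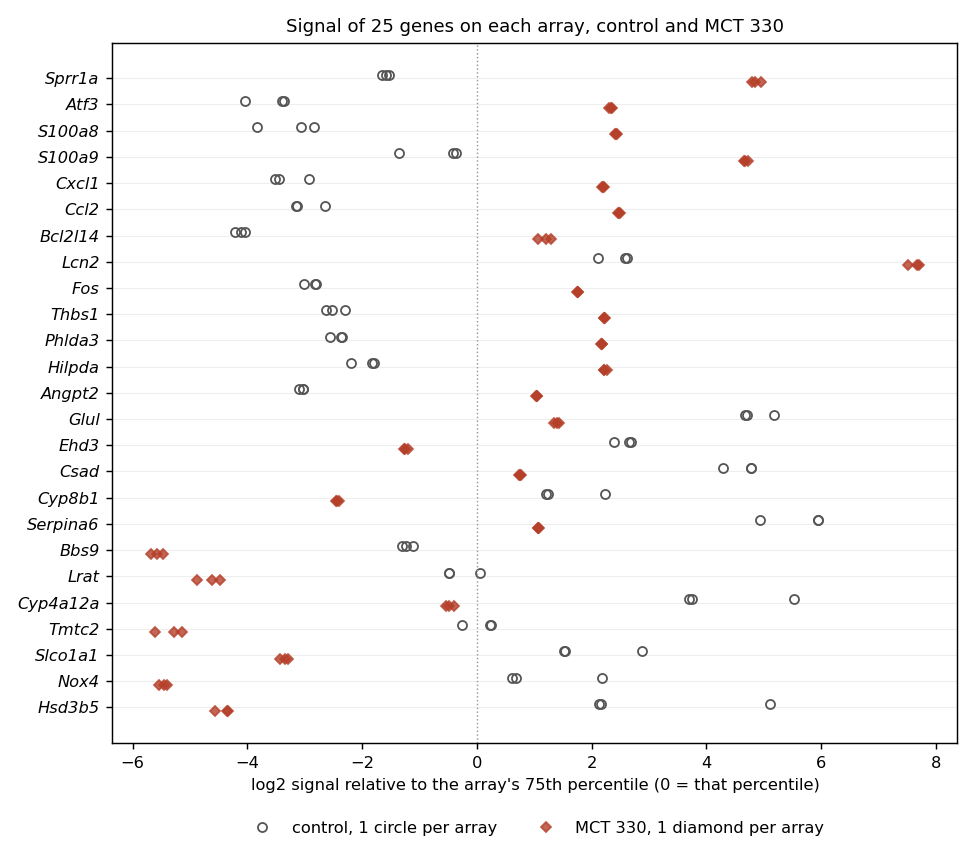
Signal of 25 genes (rows) on each array, as log2 relative to the array's 75th percentile (horizontal axis), with open circles for the 3 control and diamonds for the 3 MCT 330 arrays. In every row the groups are apart, which was a condition for choosing these genes. The diamonds of a row nearly coincide, while control replicate 1 often stands away from the other 2 circles, as in Cyp4a12a and Hsd3b5.

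Targets of p53, the factor that damaged DNA activates, rose in 27 of 64 tested genes (42.2%) and fell in 7 (3 without MCT 270 replicate 1, 2 scaled to the array median, 4 with quantile normalization). Phlda3, a repressor of Akt signalling, measured -2.56, -2.34 and -2.36 in the controls and 2.17, 2.18 and 2.19 at MCT 330, a rise of 4.63 ± 0.27. Gdf15, a secreted stress hormone, rose by 4.23 ± 0.34, Gadd45a by 3.85 ± 0.55, Btg2 by 3.65 ± 0.32 and the cell cycle inhibitor Cdkn1a by 2.48 ± 0.51. The probes of Cdkn1a disagreed, and their mean lay at 0.85 (adjusted p = 0.136 with the mean of its probes). Ephx1, the microsomal epoxide hydrolase and also a p53 target, gave no call (0.00 ± 0.20, adjusted p = 0.990). The list of p53 targets was drawn up with earlier results of these arrays known, and its count is no independent sign of direction.

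Genes that set the threshold of cell death moved in both directions. Of 49 genes of the Bcl2 family and the death receptors, 21 rose and 4 (2 without MCT 270 replicate 1, 2 scaled to the array median) fell. Bcl2l14, a Bcl2-like gene also called Bcl-G, measured -4.12, -4.04 and -4.22 in the controls and 1.29, 1.07 and 1.20 at MCT 330, a rise of 5.31 ± 0.21, or 39.6-fold; at MCT 270 it lay at 0.02. All MCT 330 arrays were high and the control arrays low, with no overlap, which was a condition for naming Bcl2l14. The receptors rose too: Tnfrsf12a, the receptor of TWEAK, by 4.10 ± 0.33, and Tnfrsf10b, the mouse TRAIL death receptor, by 3.49 ± 0.28. Apaf1, which assembles the apoptosome, rose by 2.68 ± 0.19, and the BH3-only gene Pmaip1 (Noxa) by 2.61 ± 0.25. The protective members Mcl1 (0.85 ± 0.23, adjusted p = 0.0504) and Bcl2l1 (0.90 ± 0.27, adjusted p = 0.0584) did not pass the threshold. Bik, another BH3-only gene, fell (-1.72 ± 0.31).

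Genes of glycolysis and of the response to low oxygen rose in 20 of 40 tested (50%), and 4 (2 without control replicate 1, 0 without MCT 270 replicate 1, 0 scaled to the array median) fell. Hilpda, a lipid droplet protein induced by hypoxia, measured -2.19, -1.79 and -1.83 in the controls and 2.26, 2.22 and 2.21 at MCT 330. That was a rise of 4.23 ± 0.24 (adjusted p = 0.00904), and at MCT 270 the gene lay at -0.14. Ankrd37, a target of the hypoxia factor HIF-1, rose by 3.75 ± 0.57, and Adm, the vasodilator adrenomedullin, by 3.48 ± 0.19. The glucose transporter Slc2a3 rose by 3.32 ± 0.38, the lactate exporter Slc16a3 by 3.07 ± 0.24, the glycolytic activator Pfkfb3 by 2.88 ± 0.22 and pyruvate kinase Pkm by 3.15 ± 0.21. Ero1a, which oxidises disulfides in the endoplasmic reticulum and is a HIF-1 target, rose by 3.23 ± 0.18. The abundant enzymes of the pathway gave other values: Gapdh (-0.33 ± 0.23, adjusted p = 0.318), Ldha (0.15 ± 0.27, adjusted p = 0.685) and Eno1 (-0.18 ± 0.20, adjusted p = 0.516) did not pass the threshold. Vegfa, a HIF-1 target that acts on endothelium, lay at 0.12 ± 0.18, adjusted p = 0.655.

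Subunits of the respiratory chain and ATP synthase lay lower as a group, with differences from -1.33 to -0.06 over 75 genes and a median of -0.78. The count that passed was unstable: 25 (33.3%) fell, but 1 without MCT 270 replicate 1, 49 without control replicate 1, 13 with quantile normalization, 38 with normexp and 0 scaled to the array median. Sdhb, the iron-sulfur subunit of complex II, had the lowest value (-1.33 ± 0.23), and the complex I subunit Ndufv3 also fell (-1.21 ± 0.24). For Sdhb, adjusted p = 0.0512 scaled to the array median, and for Ndufv3, adjusted p = 0.0839 scaled to the array median and 0.0564 without MCT 270 replicate 1. Atp5b, the beta subunit of ATP synthase, did not pass (-0.57 ± 0.27, adjusted p = 0.168). The pyruvate dehydrogenase phosphatases went opposite ways: Pdp1 rose (2.54 ± 0.25) and Pdp2 fell (-2.38 ± 0.20).

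Cytoskeletal genes rose in 28 of 60 (46.7%), and 0 (2 without control replicate 1) fell; the median was 1.09. Actg1, cytoplasmic gamma-actin, measured 3.98, 3.78 and 3.79 in the controls and 6.92, 6.92 and 6.83 at MCT 330, a rise of 3.01 ± 0.22. Tubb6, a beta-tubulin, measured 0.98, 1.81 and 1.83 in the controls and 4.79, 4.85 and 4.80 at MCT 330, a rise of 3.41 ± 0.49. Actg1 is often used as a reference gene, and here its 3 MCT 330 arrays lay far above the controls. Tropomyosin Tpm1 rose by 2.92 ± 0.31, vinculin (Vcl) by 2.18 ± 0.21, the nuclear lamin Lmna by 2.55 ± 0.31 and the GTPase Rhob by 2.08 ± 0.26. Cofilin Cfl1 (0.58 ± 0.19, adjusted p = 0.0789) and Acta2, the smooth muscle actin of activated stellate cells (1.73 ± 0.63, adjusted p = 0.0955), did not pass. Of 58 keratins, Sprr and epithelial injury genes 18 rose and 5 (8 without control replicate 1, 3 without MCT 270 replicate 1, 3 scaled to the array median) fell; keratin Krt8 of hepatocytes rose by 3.77 ± 0.50, Krt5 of squamous epithelium by 2.89 ± 0.25 and annexin Anxa2 by 2.77 ± 0.50.

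Genes that build ribosomes are described beside those that encode ribosomal proteins. Of 61 ribosome biogenesis and Myc-related genes 21 (13 without control replicate 1, 8 without MCT 270 replicate 1, 35 scaled to the array median, 37 with normexp) rose and 1 fell. Gnl3 (nucleostemin) measured -0.30, 0.06 and 0.12 in the controls and 1.39, 1.45 and 1.40 at MCT 330, a rise of 1.52 ± 0.25. Utp15 and Tsr1, which process ribosomal RNA, rose by 1.55 ± 0.27 and 1.39 ± 0.22, and Odc1, the ornithine decarboxylase that Myc drives, by 1.68 ± 0.26. Myc itself lay 2.95 ± 0.84 above control with MCT 330 arrays at 3.39, 3.40 and 3.39 against 0.07, 0.81 and 0.82, but its control arrays spread widely and it did not pass (adjusted p = 0.0536). Of the 76 cytosolic ribosomal protein genes 0 (6 with quantile normalization, 14 with normexp) rose and 0 fell in the limma fit, with 1 higher and 0 lower at an unadjusted p under 0.05. Their differences ran from -0.55 to 0.76, with a median of -0.08 that turned positive under the other 3 scalings. Of 20 aminoacyl-tRNA synthetases, which charge tRNAs, 5 (2 without control replicate 1, 1 without MCT 270 replicate 1, 9 scaled to the array median, 8 with quantile normalization, 12 with normexp) rose, and of 45 proteasome and ubiquitin genes 6 (3 without MCT 270 replicate 1, 12 scaled to the array median, 23 with normexp) rose; Psmd8 led with 1.88 ± 0.23.

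Genes of clotting initiation and fibrinolysis rose more often than they fell. Clotting factors of hepatocytes fell more often than they rose, as did all genes under this scaling (23.8% lower, 9.5% higher). Of 35 genes of clotting initiation, platelets and fibrinolysis 13 (37.1%) rose and 3 fell. Only 23 of the 35 were bright in both the control and MCT 330 groups. A rise among the others may be partly built in by how they entered the test. Thrombospondin Thbs1 measured -2.30, -2.52 and -2.62 in the controls and 2.22, 2.21 and 2.23 at MCT 330, a rise of 4.65 ± 0.76. The urokinase receptor Plaur rose by 3.82 ± 0.30 and Procr, the endothelial protein C receptor, by 3.68 ± 0.23; thrombomodulin (Thbd), which works with it, rose by 1.41 ± 0.20. Factor XIIIa (F13a1), which crosslinks fibrin, was not well above background on any control array and rose at least 21.2-fold. Such a bound sets the mean of the bright group against the lowest signal measured above background on the dim arrays. The genes given a bound here passed the limma test, with adjusted p from 0.00904 to 0.0260. They entered that test only through a group in which they were bright, so passing it is no separate support for the difference. Adamts13, the protease that cuts von Willebrand factor, fell (-2.13 ± 0.23), and tissue factor F3 did not pass (0.53 ± 0.26, adjusted p = 0.177).

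Of 28 coagulation proteins that hepatocytes secrete, 9 (5 without MCT 270 replicate 1, 4 scaled to the array median) fell and 1 (4 with normexp) rose. F8 and F5, the cofactors of the tenase and prothrombinase complexes, gave -2.09 ± 0.25 and -1.66 ± 0.21, and prekallikrein (Klkb1) -1.56 ± 0.20. The fibrinogen chains differed in their calls: Fga rose (0.94 ± 0.20, but adjusted p = 0.0535 with the mean of its probes and 0.0737 without MCT 270 replicate 1), while Fgb (0.18 ± 0.21, adjusted p = 0.537) and Fgg (0.14 ± 0.21, adjusted p = 0.648) did not pass. Of 35 complement genes 11 (6 without control replicate 1, 5 without MCT 270 replicate 1, 5 scaled to the array median, 7 with quantile normalization) fell, C8b among them (-1.56 ± 0.24), and C3 lay at -0.39 ± 0.20, adjusted p = 0.184.

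Markers of the sinusoidal endothelium fell almost throughout. Of 12 tested, 0 rose and 10 fell, with a median of -2.10. Their summed signal, in multiples of the array's 75th percentile, was 41.4, 39.8 and 40.4 in the controls and 10.01, 9.78 and 9.87 at MCT 330. Ehd3, an endocytic protein of these cells, measured 2.39, 2.65 and 2.69 in the controls and -1.26, -1.28 and -1.20 at MCT 330 and fell by 3.78 ± 0.30. The lectin Clec4g gave -3.44 ± 0.29, the mannose receptor Mrc1 -2.84 ± 0.22, the scavenger receptor Stab2 -2.09 ± 0.20 and the iron-regulating ligand Bmp2 -2.24 ± 0.24. Lyve1, the hyaluronan receptor often used to stain sinusoids, was the exception with Flt4: it measured 0.70, 1.30 and 1.26 in the controls and 1.12, 1.13 and 1.11 at MCT 330, overlapped between groups and gave 0.13 ± 0.31, adjusted p = 0.766. Markers shared by all vessels gave a smaller count: 5 (3 without control replicate 1, 1 without MCT 270 replicate 1, 1 scaled to the array median) of 11 fell. Ptprb, an endothelial phosphatase, gave -2.89 ± 0.23, the receptor Tie1 -1.11 ± 0.18 (adjusted p = 0.0542 scaled to the array median and 0.0509 without MCT 270 replicate 1), and the junction cadherin Cdh5 0.71 ± 0.20, adjusted p = 0.0503. In whole liver RNA, fewer cells of a type and less RNA per cell cannot be told apart.

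Resident macrophages and stellate cells also had lower marker signal. Kupffer cell markers fell in 4 of 9, with a summed signal of 49.9, 48.7 and 49.4 in the controls and 28.9, 28.6 and 28.3 at MCT 330; the lectin Clec4f gave -2.53 ± 0.25 and the complement receptor Vsig4 -2.64 ± 0.22, while the scavenger receptor Marco lay at 0.62 ± 0.30, adjusted p = 0.168. Stellate cell markers fell in 6 of 12 and their summed signal was 59.9, 54.2 and 53.4 in the controls and 25.4, 23.4 and 24.2 at MCT 330. Lrat, the enzyme with which stellate cells store vitamin A, measured 0.06, -0.48 and -0.49 in the controls and -4.48, -4.62 and -4.88 at MCT 330 and fell by 4.45 ± 0.41; at MCT 270 it lay at -0.23. Its MCT 330 arrays were all far below the controls. Colec11 gave -3.0 ± 0.22 and Ngfr -1.97 ± 0.22, whereas Pdgfrb (-0.42 ± 0.20, adjusted p = 0.171) did not pass. T cell markers summed to 22.7, 27.0 and 27.5 in the controls and 8.63, 8.05 and 8.01 at MCT 330, and 3 (1 without MCT 270 replicate 1, 1 scaled to the array median) of 11 fell, the receptor Cd4 by the most (-1.85 ± 0.26). Cd4 leads that sum; the median of the list was -0.18 and turned positive under the other 3 scalings.

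**Figure D3:**
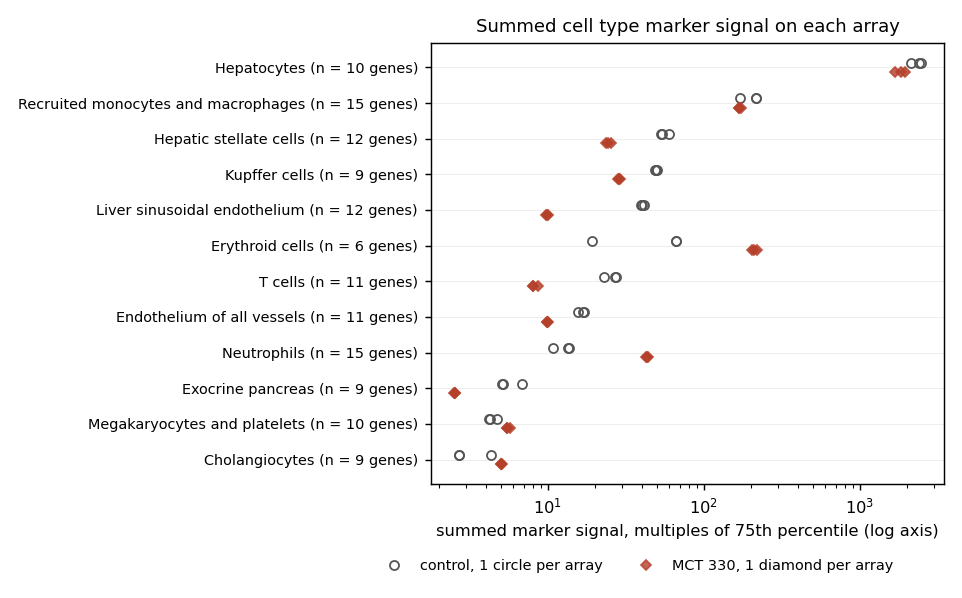
Summed signal of the marker genes of 12 cell types on each array, in multiples of the array's 75th percentile (log horizontal axis), with open circles for the control and diamonds for the MCT 330 arrays. Endothelial, Kupffer and stellate cell sums sit below the controls and neutrophil sums above them. The neutrophil sum at MCT 330 is led by S100a9 and S100a8, and the lower T cell sum by 1 gene, Cd4. Each row is read on its own, and the erythroid sum of control replicate 1 stands below those of the other 2 control arrays.

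Genes of the matrix fell more often than they rose, 20 (13 without MCT 270 replicate 1, 13 scaled to the array median) against 8 (15 scaled to the array median) of 74, in shares of 27% and 10.8% that lie near those of all genes. The median of -0.29 turned positive when arrays were scaled to their median. Col14a1 (-2.69 ± 0.25), periostin (Postn, -2.48 ± 0.19) and Col1a2 (-2.03 ± 0.37) fell. The inhibitor of matrix proteases Timp1 rose by 2.14 ± 0.44 and the basement membrane genes Nid1 by 2.25 ± 0.36 and Col4a1 by 1.38 ± 0.27. Laminin Lama1 measured 0.63, 1.01 and 1.02 in the controls and -3.44, -3.46 and -3.43 at MCT 330 and fell by 4.27 ± 0.26. Of 45 matrix proteases 7 rose, Adam8 of leukocytes by 3.62 ± 0.31 and Adamts1 by 2.94 ± 0.18, and 10 (5 without MCT 270 replicate 1, 4 scaled to the array median, 6 with quantile normalization, 6 with normexp) fell; the sign of the list's median flipped under each other scaling.

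Among 46 genes of vascular tone 9 rose and 12 (5 scaled to the array median) fell. The constrictor endothelin-1 (Edn1) measured -4.97, -3.60 and -3.70 in the controls and -1.47, -1.46 and -1.43 at MCT 330, a rise of 2.85 ± 0.59. Nos2, the inducible nitric oxide synthase, rose by 2.02 ± 0.20, and the endothelial synthase Nos3 lay at 0.08 ± 0.31, adjusted p = 0.865. The soluble guanylate cyclase subunit Gucy1a1, the receptor of nitric oxide, fell (-1.96 ± 0.24), as did Ramp2 (-2.42 ± 0.25), a subunit of the adrenomedullin receptor, while its ligand Adm rose as given above. Angpt2, the angiopoietin that destabilises vessels, measured -3.09, -3.03 and -3.03 in the controls and 1.04, 1.04 and 1.03 at MCT 330, a rise of 4.10 ± 0.36, and Flt1, a VEGF receptor, fell (-2.25 ± 0.25). Of 62 growth factor ligands and receptors 11 rose and 15 (9 without MCT 270 replicate 1, 9 scaled to the array median) fell. The ligands of the EGF receptor Areg and Ereg were not well above background on any control array and rose at least 21.1-fold and at least 12.5-fold; Hbegf rose by 2.73 ± 0.26, the receptor Met fell (-1.45 ± 0.20) and Egfr gave -0.12 ± 0.32, adjusted p = 0.790.

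Chemokines that draw neutrophils and monocytes were among the largest rises. Of 49 chemokine and receptor genes tested, 17 (34.7%) rose and 11 (7 without control replicate 1, 7 without MCT 270 replicate 1, 6 scaled to the array median, 6 with quantile normalization, 7 with normexp) fell. Cxcl1, a neutrophil attractant, measured -2.92, -3.52 and -3.45 in the controls and 2.18, 2.22 and 2.20 at MCT 330, a rise of 5.40 ± 0.61, or 42.3-fold (adjusted p = 0.00948). Ccl2, which recruits monocytes, measured -2.65, -3.13 and -3.15 in the controls and 2.49, 2.48 and 2.46 at MCT 330, a rise of 5.38 ± 0.59. In both genes each MCT 330 array lay above every control array. Ccl7 and Cxcl2 were not well above background on any control array, and rose at least 37.6-fold and at least 10.8-fold. Only 31 of the 49 genes tested were bright in both the control and MCT 330 groups. A rise among the others may be partly built in by how they entered the test. Cxcl12 (-1.72 ± 0.21), made by liver stroma, and Cxcl13 (-1.81 ± 0.43), which guides B cells, fell; Cxcl13 was lower still at MCT 270 (-4.20). The call of Cxcl13 was lost under several settings, with adjusted p = 0.0758 with quantile normalization, 0.119 with normexp, 0.0567 without MCT 270 replicate 1 and 0.0527 without MCT 270 replicate 3.

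Both Cxcl1 and Cxcl2 carry a close match to the NF-kB motif near the start, and their 150 bases before it are shown for that reason, from RefSeq on GRCm38.p6, 5′ to 3′ on the gene's strand, at chr5:90891095-90891244 (plus strand) for Cxcl1 and chr5:90903749-90903898 (plus strand) for Cxcl2. Capitals mark the run that matches the letters GGGAA, any base, TTCC, or the same read on the other strand.
Cxcl1: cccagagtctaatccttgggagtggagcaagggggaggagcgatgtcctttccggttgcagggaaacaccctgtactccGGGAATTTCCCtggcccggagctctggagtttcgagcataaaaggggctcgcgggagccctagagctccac
Cxcl2: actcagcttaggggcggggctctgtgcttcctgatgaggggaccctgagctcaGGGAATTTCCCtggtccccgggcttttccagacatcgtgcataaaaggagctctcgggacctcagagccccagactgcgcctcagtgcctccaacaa

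The matches begin 71 and 97 bases before the start. This motif was in 0.355% of all promoters and 0.378% of those of genes tested, searched over windows longer than the bases shown. It was in 0.767% (11 of 1435) of those of higher and 0.38% of those of lower genes. Among genes that rose at least 8-fold it was in 3.97%, only 5 of 126, which include Cxcl1 and Cxcl2. Of 62 genes of NF-kB signalling and innate sensing 30 (48.4%) rose and 3 fell. The feedback inhibitor Tnfaip3 (A20) rose by 3.72 ± 0.24, the adhesion molecule Icam1 by 3.50 ± 0.38, the receptor Tlr2 by 3.45 ± 0.38 and the endotoxin co-receptor Cd14 by 3.39 ± 0.21. Nfkbia, the classic inhibitor in this pathway, did not pass (0.28 ± 0.20, adjusted p = 0.322). Of 75 cytokine and receptor genes 23 rose and 13 (8 without MCT 270 replicate 1, 7 scaled to the array median) fell: the alarmin Il33 rose by 3.73 ± 0.29, and the receptor subunits Il6ra and Il1rap gave -3.01 ± 0.29 and -2.16 ± 0.20. Among 58 interferon-stimulated genes 11 (20 without control replicate 1, 5 without MCT 270 replicate 1, 23 scaled to the array median) rose and 2 (4 with normexp) fell, and Cxcl10 led with 3.40 ± 0.49.

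Neutrophil markers rose in 7 of 15. Only 8 of these 15 were bright in both the control and MCT 330 groups, as were 10 of the 15 monocyte markers below. A rise among the other markers may be partly built in by how they entered the test. The summed signal of the neutrophil markers was 10.7, 13.5 and 13.7 in the controls and 44.1, 43.0 and 42.8 at MCT 330. S100a8, a calprotectin subunit stored in neutrophils, measured -3.84, -3.06 and -2.83 in the controls and 2.44, 2.41 and 2.42 at MCT 330, a rise of 5.81 ± 0.49; S100a9, its partner, rose by 5.57 ± 0.63. Both genes were separated between groups on all arrays. The granule genes of maturing neutrophils gave other values: Camp -0.82 ± 0.26, adjusted p = 0.0695, and the receptor Csf3r -0.29 ± 0.24, adjusted p = 0.385. Monocyte markers rose in 8 of 15, Chil3 by 4.04 ± 0.39 and Plac8 by 1.65 ± 0.22, but the summed signal, 171, 215 and 215 in the controls and 168, 174 and 168 at MCT 330, is led by Fn1 and F10, which hepatocytes also make. The part of these cells in the chemokine and NF-kB values was not tested.

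Of 41 acute phase genes, which the liver secretes in inflammation, 14 rose and 3 fell. Lipocalin Lcn2, which binds bacterial iron carriers, measured 2.12, 2.62 and 2.59 in the controls and 7.71, 7.66 and 7.51 at MCT 330, a rise of 5.27 ± 0.77. Saa3 rose by 3.81 ± 0.41, and Saa1 by 4.53 ± 1.13, with adjusted p = 0.0504 with quantile normalization and 0.0697 without control replicate 1. The broad inhibitors Mug1 (-1.92 ± 0.31) and Mug2 (-1.82 ± 0.25) fell, and Hpx (0.43 ± 0.23, adjusted p = 0.211) did not pass. In iron handling, hepcidin Hamp measured 6.48, 6.99 and 6.97 in the controls and 5.30, 5.33 and 5.24 at MCT 330 and did not pass (-1.44 ± 0.88, adjusted p = 0.261), while Hamp2, its paralog, fell by 5.45 ± 1.21 from widely spread controls (4.17, 5.90 and 5.87). Their sequences are close, and how far the probes tell them apart was not tested. The iron reductase Steap4 rose by 3.99 ± 0.34. The globin gene Hbb-bs measured -4.93, -2.77 and -2.73 in the controls and 0.66, 0.68 and 0.64 at MCT 330, a rise of 4.50 ± 0.89; the erythroid marker sum was 19.3, 66.0 and 66.1 in the controls and 219, 210 and 205 at MCT 330, so the controls differed among themselves as well. That sum is led by globin genes: of the 6 erythroid markers tested 0 rose and 1 fell, and the median of -0.59 has the other sign. Without the filter on dim probes, Hbb-bs had adjusted p = 0.0601 and Hamp2 0.0713.

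In each branch of hepatocyte metabolism listed here more genes fell than rose, as did all genes under this scaling (23.8% lower, 9.5% higher). A branch with a share near 23.8% lower is therefore not set apart from all genes. Among hepatocyte markers 2 (0 scaled to the array median) of 10 fell, a share below that of all genes, and their median of -0.35 turned positive when arrays were scaled to their median; albumin (Alb) lay at -0.31 ± 0.22, adjusted p = 0.326, and the markers summed to 2148, 2479 and 2399 in the controls and 1956, 1832 and 1677 at MCT 330. Of 38 drug-metabolising P450s and flavin monooxygenases 0 (3 with normexp) rose and 19 (50%) fell. Cyp1a2, which oxidises aromatic amines, measured 3.54, 3.18 and 3.13 in the controls and 0.53, 0.51 and 0.52 at MCT 330 and fell by 2.83 ± 0.25. Several Cyp2c genes fell, Cyp2c39 by the most (-2.65 ± 0.32), but these paralogs are alike in sequence and may share signal. Fmo5 gave 0.14 ± 0.27, adjusted p = 0.716 and Cyp2a12 -0.34 ± 0.24, adjusted p = 0.317. Of 32 conjugating enzymes and esterases 16 fell and 0 rose; the sulfotransferase Sult2a8 measured 6.22, 5.69 and 5.69 in the controls and 1.99, 2.12 and 2.17 at MCT 330 and fell by 3.86 ± 0.41, and Inmt gave -2.89 ± 0.31.

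Bile acid synthesis had 12 (7 without MCT 270 replicate 1, 6 scaled to the array median) lower genes of 20 and 0 higher. Cyp7a1, the rate-limiting enzyme, measured 1.36, 2.41 and 2.44 in the controls and -1.56, -1.52 and -1.54 at MCT 330 and fell by 3.43 ± 0.48, whereas at MCT 270 it lay at 1.18. Cyp8b1, which sets the share of cholic acid, measured 2.23, 1.20 and 1.24 in the controls and -2.43, -2.45 and -2.41 at MCT 330 and fell by 4.16 ± 0.52. The nuclear receptor Nr1h4 (FXR) gave -0.68 ± 0.26, adjusted p = 0.109 and Fgfr4, the receptor of the intestinal feedback signal, 0.03 ± 0.28, adjusted p = 0.945. Of 28 transporters 11 (6 without MCT 270 replicate 1, 6 scaled to the array median) fell and 3 (1 without control replicate 1, 1 without control replicate 2) rose. The uptake transporter Slco1a1 measured 2.88, 1.52 and 1.53 in the controls and -3.29, -3.44 and -3.34 at MCT 330 and fell by 5.56 ± 0.57 (adjusted p = 0.00904). The canalicular bile salt pump Abcb11 gave -1.37 ± 0.24 (adjusted p = 0.0552 scaled to the array median), and the sinusoidal uptake carrier Slc10a1 -0.33 ± 0.23, adjusted p = 0.319. The exporter Abcb1b (Mdr1b) rose by 2.23 ± 0.33.

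Zonation was described by genes of hepatocytes around the central vein and around the portal vein. Of 42 pericentral genes 28 (66.7%) fell and 2 rose, with a median of -1.66; of 41 periportal genes 13 (31.7%, and 8 without MCT 270 replicate 1, 5 scaled to the array median) fell and 1 rose, with a median of -0.58. Glul, the glutamine synthetase of the last row of pericentral cells, measured 5.18, 4.68 and 4.70 in the controls and 1.42, 1.40 and 1.35 at MCT 330 and fell by 3.54 ± 0.46. Slc1a2, the glutamate transporter of the same cells, measured 2.05, 1.47 and 1.47 in the controls and -1.63, -1.62 and -1.60 at MCT 330 and fell by 3.38 ± 0.34. Rgn, which acts in vitamin C synthesis, fell by 3.24 ± 0.20. At MCT 270 Glul and Slc1a2 lay at -3.43 and -3.10, and Rgn at -0.79. The pericentral genes Gstm3 and Rcan1 rose (1.46 ± 0.34 and 3.01 ± 0.19), Gstm3 with adjusted p = 0.0613 without MCT 270 replicate 1. Periportal Otc and Asl of the urea cycle gave -2.13 ± 0.19 and -1.55 ± 0.22, and Cps1, its first enzyme, -0.39 ± 0.20, adjusted p = 0.193.

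Wnt ligands and R-spondins from central vein endothelium keep pericentral genes on. Of 58 Wnt, R-spondin, Bmp and Notch genes 17 fell and 0 (3 scaled to the array median, 3 with normexp) rose. Rspo3 measured 0.00, -0.13 and -0.12 in the controls and -2.12, -2.12 and -2.04 at MCT 330 and fell by 2.03 ± 0.23, and Wnt9b gave -1.23 ± 0.28, with adjusted p = 0.0571 with quantile normalization, 0.0841 with normexp, 0.0586 scaled to the array median and 0.0651 without MCT 270 replicate 1. Lgr5, the R-spondin receptor, measured -0.83, -1.94 and -1.88 in the controls and -5.16 and -5.25 at MCT 330 (replicate 1 missing) and fell by 3.84 ± 0.74. Gdf2 (BMP9) gave -3.20 ± 0.32, and beta-catenin (Ctnnb1) 0.58 ± 0.19, adjusted p = 0.0721. The repressor Tbx3, a Wnt target in these cells, fell too (-2.59 ± 0.36; -2.32 at MCT 270).

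Of 54 genes of fatty acid oxidation and PPAR-alpha, 34 (19 without MCT 270 replicate 1, 14 scaled to the array median) fell and 0 rose. Acsl1, which activates fatty acids, measured 6.45, 6.50 and 6.51 in the controls and 3.96, 3.96 and 3.93 at MCT 330 and fell by 2.53 ± 0.25. Ppara itself gave -1.66 ± 0.19; Fabp1 (-0.87 ± 0.25, adjusted p = 0.0556) did not pass. In glucose metabolism 15 (6 without MCT 270 replicate 1, 3 scaled to the array median, 7 with quantile normalization) of 31 genes fell. G6pc, which releases glucose from its phosphate, gave -3.76 ± 0.78 from controls at 5.70, 6.29 and 6.33 (adjusted p = 0.0642 without the filter on dim probes), and Pck1, the other control point of gluconeogenesis, -1.51 ± 0.42, adjusted p = 0.0524. Amino acid breakdown had 29 (17 scaled to the array median) lower genes of 54 and 0 higher: Csad, which makes taurine, measured 4.28, 4.78 and 4.78 in the controls and 0.76, 0.74 and 0.75 at MCT 330 and fell by 3.78 ± 0.28. In lipid synthesis 10 (5 without MCT 270 replicate 1, 4 scaled to the array median) of 28 genes fell, among them Srebf1 (-1.49 ± 0.24; 1.26 at MCT 270), and Gpam rose (1.26 ± 0.20). In cholesterol synthesis Sqle rose by 2.26 ± 0.43 (adjusted p = 0.0540 without control replicate 1) and 9 (4 scaled to the array median) of 27 fell.

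The deepest fall of a named gene well above background on all arrays, that of Hsd3b5, was in a gene that male growth hormone pulses maintain. Of 35 male-biased and growth hormone dependent genes 15 (9 with quantile normalization) fell and 0 rose. Hsd3b5 measured 5.10, 2.17 and 2.13 in the controls and -4.57, -4.34 and -4.36 at MCT 330 and fell by 8.05 ± 1.20, or 265-fold (adjusted p = 0.0136). Control replicate 1 lay well above the other controls in this gene, yet no MCT 330 array came near any of them. Cyp4a12a, a fatty acid hydroxylase of male liver, measured 5.52, 3.75 and 3.70 in the controls and -0.40, -0.49 and -0.53 at MCT 330 and fell by 5.10 ± 0.74. Elovl3, an elongase, measured 3.76, -0.15 and -0.12 in the controls and was not well above background on any MCT 330 array. Its bound of at least 268-fold lower rests on the mean of these controls, which control replicate 1 raises. Elovl3 did not pass the threshold with normexp. Hsd3b5, Cyp4a12a and Elovl3 each have close relatives whose signal the probes may share.

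Carriers in plasma split. Serpina6, the corticosteroid-binding globulin, measured 4.94, 5.94 and 5.94 in the controls and 1.06, 1.08 and 1.06 at MCT 330 and fell by 4.37 ± 0.44, and Serpina7, the thyroxine-binding globulin, measured -2.09, -1.27 and -1.26 in the controls and 2.56, 2.47 and 2.52 at MCT 330, a rise of 4.19 ± 0.47. These hormone carriers of one gene family thus lay on opposite sides of all control arrays. Over the whole list of 35 carriers and secreted proteins 8 (3 without MCT 270 replicate 1, 4 scaled to the array median, 4 with quantile normalization) fell and 2 (5 with quantile normalization, 5 with normexp) rose. Of 53 nuclear receptors and hepatocyte factors 14 (8 without MCT 270 replicate 1, 8 scaled to the array median) fell and 3 (1 without MCT 270 replicate 1) rose. The xenobiotic receptor Nr1i3 (CAR) gave -2.39 ± 0.39, Hnf4a -1.06 ± 0.22 and Cebpb -0.22 ± 0.26, adjusted p = 0.543. For Hnf4a, adjusted p = 0.105 scaled to the array median and 0.0652 without MCT 270 replicate 1. The orphan receptor Nr4a1, an immediate early gene, rose by 1.30 ± 0.20.

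Genes known for very long introns, which take RNA polymerase longest to transcribe, fell in 59 of 113 tested (52.2%) and rose in 5. The lengths of these genes were not measured here. Nox4, Tmtc2 and Bbs9 entered this list with their values known; without them 56 of 110 fell and the median was -1.17. Bbs9, of the ciliary BBSome, measured -1.12, -1.30 and -1.24 in the controls and -5.46, -5.68 and -5.58 at MCT 330 and fell by 4.38 ± 0.20 (adjusted p = 0.00904). Immp2l, a mitochondrial peptidase, measured 1.04, 1.1 and 1.07 in the controls and -3.20, -3.0 and -3.08 at MCT 330 and fell by 4.16 ± 0.22. In both, the arrays of a group lay close together and the groups far apart. The sugar nucleotide enzyme Gmds gave -3.78 ± 0.22. At MCT 270 Bbs9 and Gmds lay at -4.35 and -3.67. Long genes that rose included Nrg1 (3.55 ± 0.31) and Pde4b (1.92 ± 0.23). Of 24 housekeeping genes with short, stable messages 0 fell and 2 (4 with quantile normalization, 6 with normexp) rose, with a median of -0.04 that turned positive under the other 3 scalings.

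Cell cycle genes were split. Of 73 tested 8 (17 scaled to the array median) rose and 8 (34 without control replicate 1, 5 scaled to the array median) fell: the replication licensing genes Mcm2 and Mcm6 rose by 2.42 ± 0.35 and 2.34 ± 0.47, and Ccnb1, the cyclin of mitosis, fell by 3.13 ± 0.31 (adjusted p = 0.0977 with the mean of its probes). In DNA repair 11 (3 without MCT 270 replicate 1, 21 scaled to the array median, 21 with normexp) of 77 rose and 9 (4 without MCT 270 replicate 1, 3 scaled to the array median) fell; the bypass polymerase Polk rose by 2.46 ± 0.20 and the alkyl transferase Mgmt gave -1.81 ± 0.28. Of 68 Nrf2 and glutathione genes 16 rose and 6 (3 scaled to the array median, 3 with quantile normalization) fell. The heme oxygenase Hmox1 rose by 2.82 ± 0.28 with -0.02 at MCT 270, whereas Nqo1 rose by 2.0 ± 0.28 with 1.94 there. G6pdx, which supplies NADPH, measured -1.23, -0.98 and -1.01 in the controls and 2.60, 2.62 and 2.57 at MCT 330, a rise of 3.71 ± 0.21, and catalase (Cat) fell (-1.27 ± 0.25, but adjusted p = 0.0791 with quantile normalization). In the integrated and ER stress list 13 of 58 rose and 0 (3 without control replicate 1) fell; the factors Ddit3 (CHOP) and Nupr1 rose by 2.20 ± 0.19 and 2.92 ± 0.46, and the ER chaperone Hspa5 gave 0.69 ± 0.25, adjusted p = 0.0906. Of 46 heat shock genes and chaperones 10 (4 without MCT 270 replicate 1, 20 scaled to the array median, 20 with normexp) rose, Hspb8 by 1.37 ± 0.23, and 1 fell.

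**Figure D4:**
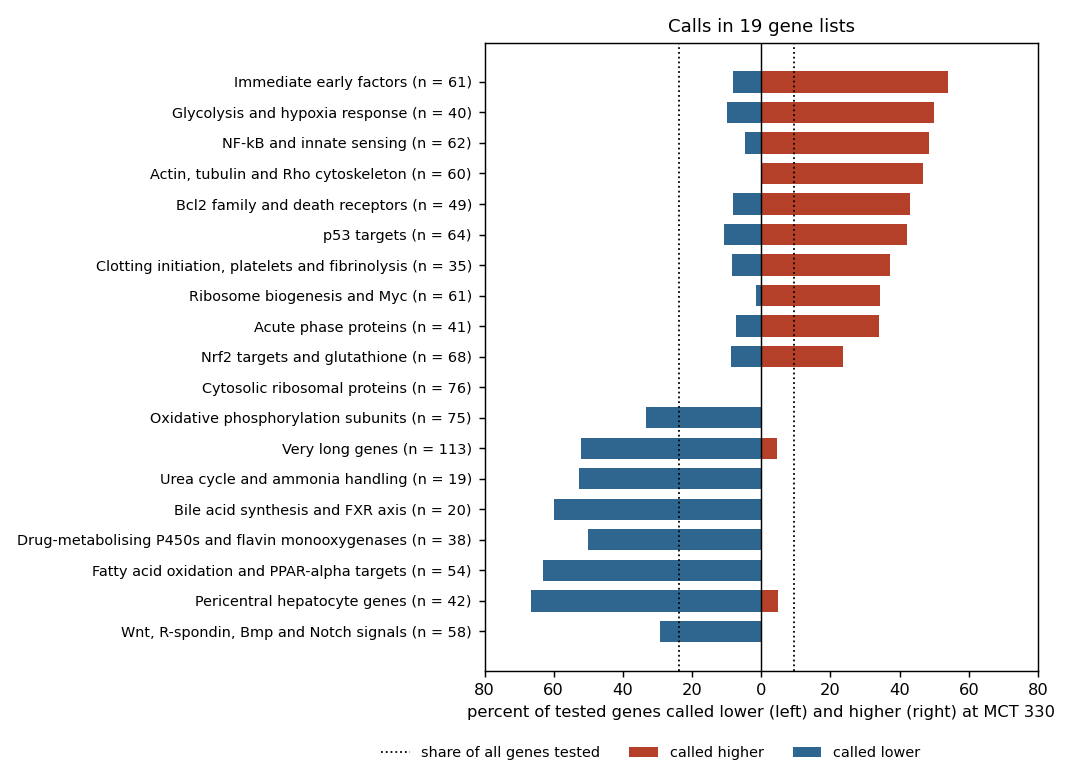
Percent of the tested genes in each of 19 lists called lower (left, blue) and higher (right, red) at MCT 330 against control, with dotted lines at the shares of all genes, 23.8% lower and 9.5% higher. The immediate early list reaches 54.1% higher and the pericentral list 66.7% lower, and the ribosomal protein list has no call on either side.

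The lower dose gave near-control values for some of the genes above and like values for others. MCT 330 and MCT 270 share their controls, so each difference from control is given beside the other, and the test is of MCT 330 against MCT 270 directly. That test passed 5423 of 24808 genes (21.9%), 1245 higher (5.02%) and 4178 lower (16.8%) at MCT 330. Fos differed by 4.91 ± 0.21 (adjusted p = 0.0210), Sprr1a by 6.32 ± 0.22, Bcl2l14 by 5.29 ± 0.21, Hilpda by 4.37 ± 0.24 and Lrat by -4.22 ± 0.41 (adjusted p = 0.0210 for each). These genes were near control at MCT 270 and far from it at MCT 330. Cyp7a1 lay above control at MCT 270 and below it at MCT 330, and the doses differed by -4.61 ± 0.48 (adjusted p = 0.0210). Glul differed by -0.11 ± 0.46 (adjusted p = 0.882), Stab2 by 0.19 ± 0.20 (adjusted p = 0.538), Gmds by -0.11 ± 0.22 (adjusted p = 0.759) and Bbs9 by -0.03 ± 0.20 (adjusted p = 0.921). For these the doses could not be told apart, which leaves differences larger than the standard errors possible. G6pdx rose at MCT 330 and lay at 3.23 at MCT 270, a difference of 0.47 ± 0.21 (adjusted p = 0.167). Without MCT 270 replicate 1 the direct test passed 0 genes in the limma fit, with 6216 at an unadjusted p under 0.05.

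**Figure D5:**
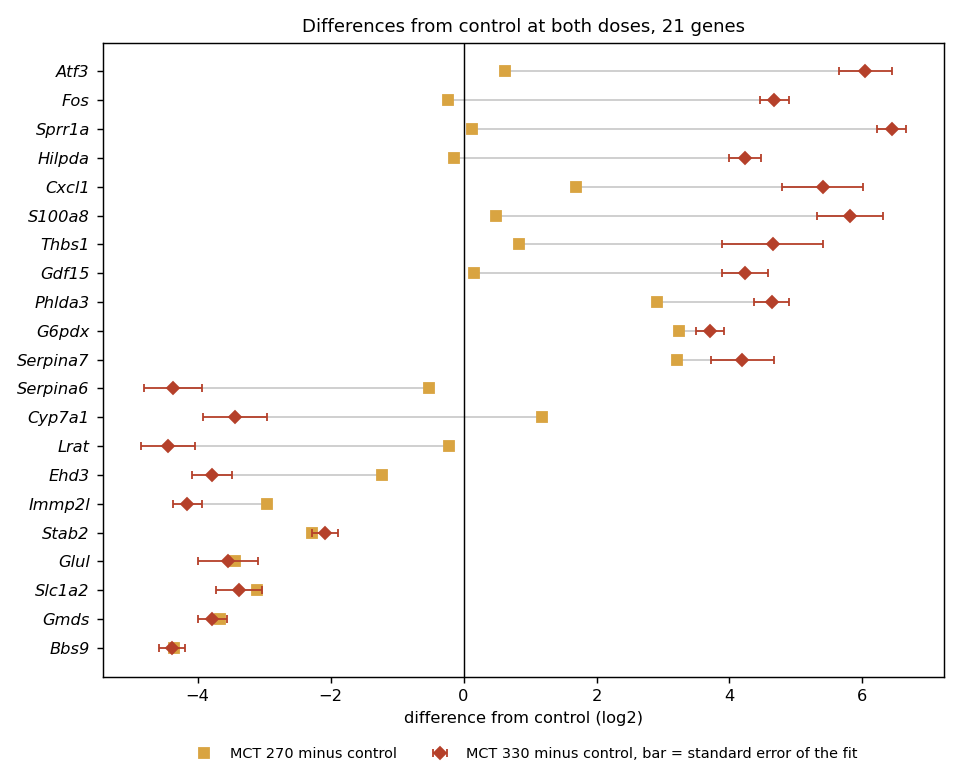
Difference from control (log2, horizontal axis) of 21 genes at MCT 270 (squares) and MCT 330 (diamonds, bar for the standard error of the model), both against the same controls. Atf3, Fos, Sprr1a and Hilpda lie near 0 at the lower dose and at 4.23 to 6.44 at the higher; Glul, Slc1a2, Gmds and Bbs9 lie nearly as far below control at both.

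Some genes were well above background in one group and on no array of the other, so that their difference has only a bound. Of 24808 genes tested 562 had a bound in the higher and 73 in the lower direction, whether or not they passed the threshold. On the control arrays 75.02%, 66.48% and 63.95% of spots were well above background, on the MCT 330 arrays 73.44%, 80.15% and 77.41%. Whether this shaped the balance of the bounds was not tested. Among the higher genes Ch25h, the cholesterol 25-hydroxylase of activated macrophages, rose at least 23.6-fold, the decoy receptor Il1r2 at least 20.6-fold, the lectin Clec4e at least 18.9-fold and Acod1, which makes itaconate, at least 16.4-fold. The damage-induced apoptosis suppressor Ddias rose at least 19.9-fold. Among the lower genes Susd4, a complement regulator, measured -0.60, -2.54 and -2.57 in the controls. By the mean of these controls, which control replicate 1 raises, Susd4 was at least 25.6-fold lower, and it did not pass with normexp. The potassium channel Kcnj16 was at least 14.6-fold lower.

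Other large differences were in genes outside the metabolic and stress lists. The oxidase Nox4 measured 2.18, 0.68 and 0.61 in the controls and -5.45, -5.53 and -5.41 at MCT 330 and fell by 6.88 ± 0.71; control replicate 1 lay above the other controls. Tmtc2, an ER protein, gave -5.33 ± 0.40, Syt1, a synaptic calcium sensor, -4.29 ± 0.39 and Chchd6, of the mitochondrial cristae, -3.89 ± 0.30 (-3.64 at MCT 270). The antiprotease Slpi rose by 4.21 ± 0.46, the elongase Elovl7 by 4.15 ± 0.46 and the flippase Atp8b5 by 4.14 ± 0.42 (3.73 at MCT 270). The crystallin Cryaa gave -4.0 ± 0.96 and the receptor Vmn1r214 -3.56 ± 0.93, from controls that spread by 1.67 and 1.62 (SD of 2 samples). For Cryaa, adjusted p = 0.0546 with quantile normalization, 0.0576 with normexp and 0.0529 without MCT 270 replicate 1, and for Vmn1r214, adjusted p = 0.0645 with quantile normalization, 0.0660 with normexp and 0.0620 without MCT 270 replicate 1.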

How the data were processed

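Liver RNA was labelled with Cy3 and hybridised to 1-colour Agilent mouse arrays, and spots were read with Agilent Feature Extraction 11.0.1.1, per the submitters' processing notes. The deposited intensity values are the scanner's processed signals, background-corrected per the file headers and not normalized between arrays. Here log2 of each processed signal was taken minus the array's 75th percentile. Control and outlier-flagged spots were left out, spots of a probe averaged, and a probe had to be well above background throughout 1 or more groups. The brightest of a gene's probes stood for it; of 4338 genes with 2 or more, 2903 had all probes on one side of 0. Arrays of a group that differed by no more than repeated spots were averaged, leaving out 1001 MCT 330 spots over 1 log2 unit from both other arrays. A gene passed the filter through either group, so lists hold genes measured in only 1.

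The 5 samples were fitted with lmFit and eBayes of limma 3.58.1 in R 4.3.3, two-sided, with 2 residual degrees of freedom, and adjusted by Benjamini-Hochberg over all genes. The method was tested on simulated data. Of 33258 systematic names 21464 matched a RefSeq symbol; the other probes keep the array's name. Named genes were the 30 highest and 30 lowest called genes measured on all arrays and beyond all controls, the 10 highest and lowest bounds, and per list up to 6 called members in each direction and 3 others; those outside this rule, such as Vegfa, F3, Nos3, Hamp, Acta2 and Rspo3, were chosen with their values seen, and some genes the rule names are not reported here. The gene lists and cell type markers were chosen with earlier results of these data known. Alternatives covered samples, blocks, scaling, background, filters, probes, flagged spots and single arrays. The miRNA arrays were not used here.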

Additional observations from a re-analysis of the deposited data

How the results depend on the processing

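What counted as a sample and the filter on dim probes moved the counts by over 1.5 times. With the 9 arrays as labelled 18012 genes passed against control, 6354 higher and 11658 lower, and 16096 against MCT 270. The fit with the replicate number as a block (replicate block) gave 17895, 6295 higher and 11600 lower, and 15939 against MCT 270; same-numbered arrays of different groups deviated together by correlations of 0.0152 to 0.0766, so the numbers do not pair the samples. With scan as a random block 18707 genes passed against control, 6635 higher and 12072 lower, and 16923 against MCT 270. With 6 arrays, each replicate 3 averaged with replicate 2, a setting chosen after seeing the data, 13731 genes passed against control, 4567 higher and 9164 lower, and 11228 against MCT 270; of the 8271 genes called in the report 8171 were among them. With only control and MCT 330 samples 4900 genes passed against control, 1352 higher and 3548 lower. Without a filter on dim probes 3751 genes passed against control, 951 higher and 2800 lower, and 0 against MCT 270 in limma, with 9165 at an unadjusted p under 0.05. Normexp gave 3715 higher and 3917 lower genes, and the array median 4111 and 3385. Leaving out each array in turn gave 4900 to 8404 genes, 1352 to 2379 higher and 3548 to 6025 lower, and 0 to 7292 against MCT 270, the lowest without MCT 270 replicate 1. The other settings run kept these counts within 1.5 times, including spots kept where 1 MCT 330 array stood apart, which was also added after seeing the data. Of the values for named genes over all settings 4745 kept direction and side of the threshold, 149 gained a call, 70 lost it and 36 changed sign; none of those that changed sign had passed. These were with the 9 arrays as labelled, Ephx1 -0.0266, Fgfr4 -0.0303, and with the replicate block, Ephx1 -0.0266, Fgfr4 -0.0303, and with quantile normalization, Alb 0.0313, Cebpb 0.144, Cyp2a12 0.0755, Egfr 0.133, Eno1 0.244, Gapdh 0.011, Slc10a1 0.0786, and with normexp, Alb 0.0255, Cebpb 0.174, Cyp2a12 0.138, Egfr 0.106, Eno1 0.299, Slc10a1 0.0869, and with scaling to the array median, Alb 0.0698, Cebpb 0.166, Csf3r 0.0892, Cyp2a12 0.0436, Egfr 0.262, Eno1 0.201, Gapdh 0.0562, Slc10a1 0.0523, and with the mean of its probes, Nos3 -0.0414, and with scan as a block, Ephx1 -0.0211, Fgfr4 -0.00533, and with 6 arrays, Ephx1 -0.000801. Over the settings that left out an array, values on both sides of 0 occurred for Egfr (-0.135 to 0.198), Ephx1 (-0.0871 to 0.022), Fgfr4 (-0.148 to 0.043), Fmo5 (-0.0588 to 0.163), Ldha (-0.0905 to 0.186), Lyve1 (-0.16 to 0.141). The cause was not tested. Of the list medians taken relative to all genes, 1421 stayed within a set tolerance, which is not a measured spread, and 96 moved beyond it. The median of the cholangiocyte markers was the 1 that changed sign (-0.151), with probes well above background in both groups. Precision is limited by how few arrays there were. In 5 classes of genes from the dimmest to the brightest, 23.3%, 38.2%, 29.3%, 13.1% and 15.3% were lower, with no steady order.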
